A study of Mus musculus with 4 samples.

Results

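The peaks described here lie in genes of the circadian clock. Of 10 clock genes sought by symbol (Clock, Arntl, Npas2, Per1, Per2, Cry1, Nr1d1, Nr1d2, Rora and Dbp), 7 overlapped at least 1 m6A peak, and every distinct peak of each was kept. They held 14 of the 12815 distinct peaks, and they were 7 of the 7821 gene symbols with a peak. Arntl, Npas2 and Cry1 had no row in the table used here. Every peak in the table was called in at least 1 genotype and had more IP than input RPM in each, so a gene without a row may still be expressed or methylated. The peaks came from m6A RNA immunoprecipitation sequencing of livers from control mice, Mettl3flox/flox (flox), and from hepatocyte knockout mice, Mettl3 flox/flox Alb-Cre (HKO). METTL3 is the catalytic subunit of the nuclear complex that methylates adenosine in mRNA at N6 (m6A). Both groups carried the floxed Mettl3 alleles, had the C57BL/6 background, ate normal chow and were 8 weeks old. The control mice had no Cre. Cre under the albumin promoter acts in hepatocytes, so other liver cells of the HKO mice keep Mettl3. RNA was pooled over several mice in each group, and 1 library of immunoprecipitated RNA (IP) and 1 of the RNA before precipitation (input) were made per genotype, 4 libraries in all. The mice lived under a light and dark cycle. The sources used here do not state the time of day at which these livers were taken, so genotype and sampling time cannot be told apart in any difference below.

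The mammalian clock is a transcriptional feedback loop. CLOCK, or its relative NPAS2, pairs with ARNTL (BMAL1) and activates genes with E-box elements, among them the Per and Cry genes, whose proteins return to the nucleus and repress the pair. A second loop is formed by the nuclear receptors REV-ERB (Nr1d1 and Nr1d2), which repress Arntl, and ROR (Rora among them), which activate it. In mouse liver the transcripts of Dbp, Nr1d1, Nr1d2, Per1 and Per2 are high in the day or around dusk, those of Arntl, Clock and Npas2 are high around dawn, and that of Rora varies little. m6A has been studied as a step that sets how fast clock transcripts are processed and exported from the nucleus.

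By the totals that the deposited counts and RPM imply, the libraries held 17784101 reads (flox IP), 14972304 (flox input), 17232467 (HKO IP) and 18365472 (HKO input), and the peaks of clock genes held from 26 to 1317 reads in a library. No group has a second library, so no difference was checked against replicates. The 95% intervals below cover read counting only, not variation between mice or libraries, and reads may include PCR copies. Of 10 hepatocyte markers, 7 had peaks, Alb, Ttr, Apoa1 and Hnf4a among them and Cps1, Serpina1a and Tf without a row. Their summed input was 10603 RPM (reads scaled to the library total) in flox and 9504 in HKO. Of these 7, 0 changed 2-fold, against 4.46% of all genes lower and 13.4% higher by this size. Kupffer cell and macrophage markers (9 of 10 with peaks, Clec4f and Csf1r among them) had a summed input of 499 RPM in flox and 818 in HKO. All 9 were higher in HKO, against 4994 of all 7821 genes, and 2 were at least 2-fold higher, against 13.4%. The median log2 input change was -0.26 for endothelial markers (8 of 10 with peaks) , 0.56 for stellate and fibroblast markers (7 of 10) and 1.22 for cholangiocyte markers (3 of 7). Immediate-early genes, induced within minutes by acute signals, had a summed input of 997 RPM in flox and 3524 in HKO. Of the 21 with a peak, 16 were at least 2-fold higher, against 13.4% of all genes. Per1 is also induced by such signals. The part of these differences in the results below was not tested. In whole liver, fewer cells of a type and less RNA per cell cannot be told apart. No peak overlapped Mettl3, so the deletion was not checked here.

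m6A is known to lie mostly around the stop codon. Of the 14 peaks, 13 were placed on an exon of GENCODE M21 (GRCm38), and 7 of these had their middle within 200 nt of a stop codon, against 22.9% of all placed peaks. Another 2 lay in 5' UTRs (Nr1d1 and Dbp), against 12% of all. The methyltransferase prefers the sequence GGACT, with U for T in RNA, and tolerates some other letters on either side of the AC. GGACT was found on the transcript strand in 5 of 13 peaks, against 44.4% of the 6724 placed peaks of the same range of exonic length (210 to 674 nt). GAACT was found in 10 of 13 (37.8% of all), GGACC in 8 (39.5%), AGACT in 7 (41.8%), GGACA in 5 (48.0%) and TGACT in 3 (33.7%). Neighbouring matches can share at most 1 base. The sites printed here are the match nearest to the deposited summit in the 5 peaks with HKO enrichment lower by 2-fold or more, and in 5 peaks short of this size for comparison. Each is read 5' to 3' on the transcript with the match in capitals, from the GENCODE M21 transcript sequences, and coordinates are GRCm38.
Per2, 3' UTR peak, minus strand of chr1:91417011-91417035: ttctttggttGGACTctctcagaca
Per2, stop codon peak, minus strand of chr1:91417610-91417634: attgaacttgAGACTgaggtggtct
Rora, stop codon peak, plus strand of chr9:69379171-69379195: aatcaaagctGAACTtgttttgctc
Nr1d2, stop codon peak, minus strand of chr14:18206700-18206724: gcactctgagGAACTcttggccttt
Nr1d2, exon 5 peak, minus strand of chr14:18215048-18215072: acatctcagtGGACAgtacaaaggg
Clock, stop codon peak, minus strand of chr5:76216728-76216752: cctcggcacaGGACTgacagcctga
Per1, stop codon peak, plus strand of chr11:69109268-69109292: caagctctcaGGACTctgccatgga
Per1, exon 19 peak, plus strand of chr11:69106583-69106607: gccctcttctGGACCctggccaccc
Nr1d1, 5' UTR peak, minus strand of chr11:98775109-98775133: tcttcctttgGGACTtttgcacccg
Dbp, 5' UTR peak, plus strand of chr7:45705396-45705420: gagcctcccgGGACAgtctttgagt
Among the 5 peaks that were at least 2-fold lower, 1 held GGACT. In the Per2 3' UTR peak this site lay 3 nt from the summit, and the match of the exon 5 peak of Nr1d2 lay at the summit itself. Not all placed peaks short of 2-fold are printed. In those left out, the nearest match was GAACT in the intron peak of Per1 and at the Nr1d1 stop codon, and GGACA at the Dbp stop codon. A match is a description of these letters and not a measured site of methylation.

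The first comparison asked what share of the m6A-precipitated reads of each genotype fell on the clock gene peaks. IP RPM is scaled to the library total. A loss of m6A shared by all transcripts would therefore not show in it or in its ratio to input. IP RPM was lower in HKO at 12 of the 14 peaks. It was at least 2-fold lower at 11, against 18.9% of all peaks, and at least 2-fold higher at 0, against 17.4%. The other 2, in exon 19 of Per1 and in an intron of Clock, had more IP in HKO. Summed over the peaks of a gene, IP was at least 2-fold lower in 5 of the 7 genes (Per2, Nr1d1, Nr1d2, Rora and Dbp), against 18.9% of all genes, and lower by any amount in 6, against 50.8%. The median log2 IP change over the 14 peaks was -1.50, against 0.13 over all peaks. Input at the same peaks had a median log2 change of -0.69, against 0.22 over all peaks, and was at least 2-fold lower at 3 peaks (5.06% of all peaks) and at least 2-fold higher at 0 (14.6% of all).

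**Figure D1:**
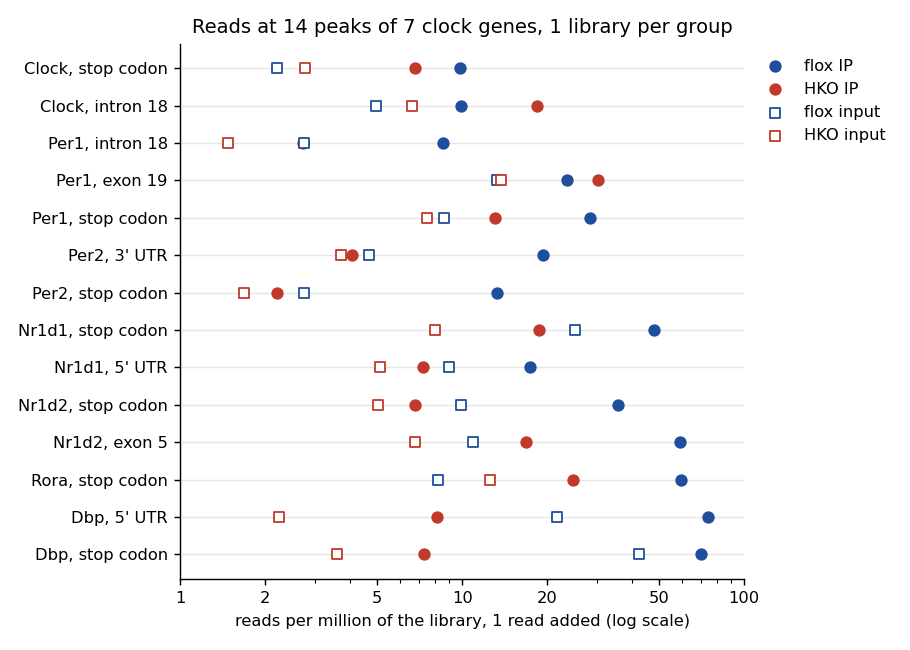
RPM (with 1 read added, log scale) at each of the 14 peaks, with filled circles for IP and open squares for input, blue for flox and red for HKO, 1 library each. At Dbp both red symbols lie far to the left of the blue ones, while at Per2 the HKO IP has moved next to the inputs, and at Rora the HKO input lies to the right of the flox input.

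Enrichment, the ratio of IP to input RPM in the same genotype, separates the IP from the amount of transcript. It ranged from 1.65-fold to 7.28-fold in flox and from 1.10-fold to 3.64-fold in HKO, with medians of 3.35-fold and 2.0-fold. Over all peaks the medians were 2.84-fold and 2.31-fold. At 5 of the 14 peaks, in Per2, Nr1d2 and Rora, HKO enrichment was lower by at least 2-fold, against 24.3% of all peaks, and it was higher by that size at 0, against 6.25% of all. At least 1 lower peak was held by 3 of the 7 genes, against 34.5% of all genes. With reads summed over the peaks of a gene, the same 3 genes were lower (25.8% of all genes) and 0 were higher (3.81%). Among peaks within 200 nt of a stop codon, 3 of 7 clock gene peaks were lower by this size, against 42.5% of all such peaks. These shares lie near those of the other genes. The median log2 change was -0.81 over the 14 peaks and -0.04 over all peaks, and the interval lay wholly below 0 at 7 of them, against 35.8% of all. By the deposited calls, 8 of the 14 peaks were called in both genotypes, 6 in flox alone and 0 in HKO alone, against 46.2%, 22.5% and 31.3% of all peaks. A call in flox alone does not by itself mean lower enrichment in HKO. The peaks called in flox alone include the Dbp stop codon (log2 change 0.30, -0.15 to 0.75) and the Nr1d1 5' UTR (-0.46, -0.94 to 0.03). They also include the intron peak of Per1 (-0.75, -1.60 to 0.09).

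**Figure D2:**
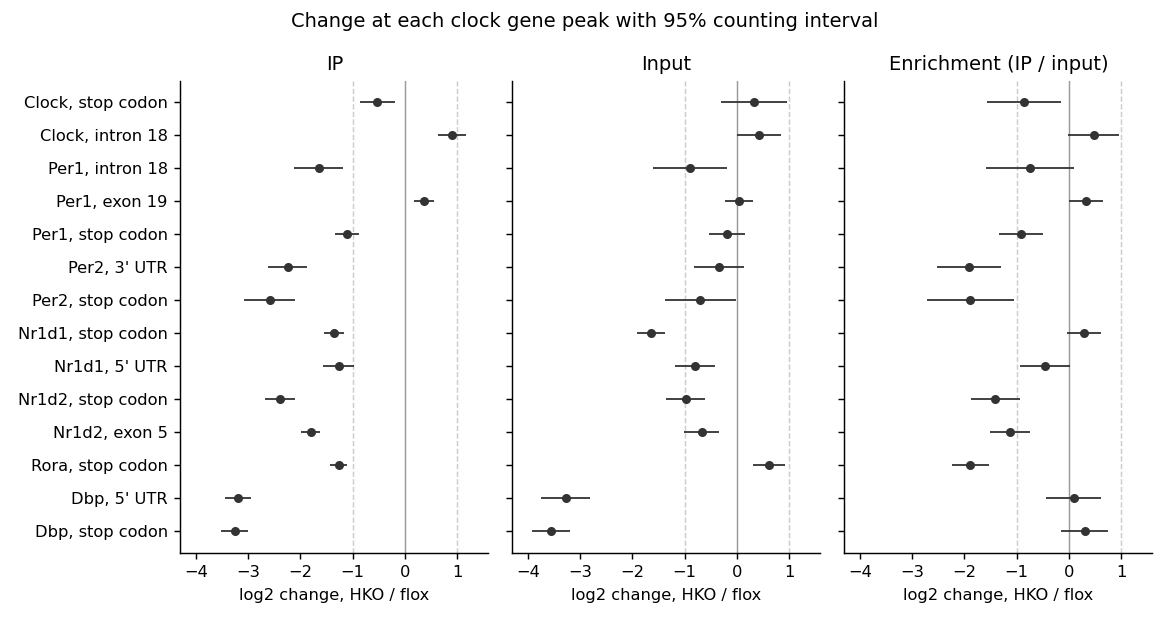
Log2 change from flox to HKO at each peak for IP, input and enrichment, with 95% counting intervals (horizontal bars) and dashed lines at 2-fold. The 2 peaks of Dbp are the lowest for IP and for input (-3.56 to -3.19) but sit near 0 for enrichment, whereas those of Per2 and Rora are the lowest for enrichment (-1.91 to -1.88).

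Of the activators, Clock (ENSMUSG00000029238), which encodes the E-box binding partner of ARNTL, was the only member with a row. Its stop codon peak lies on chromosome 5 from 76216622 to 76216880 and held 173 IP and 32 input reads in flox and 116 and 50 in HKO. IP exceeded input 4.44-fold in the control and 2.44-fold in HKO, and the log2 change was -0.86 (-1.58 to -0.14). The second peak assigned to Clock, from 76232905 to 76233130, covers 166 nt of the processed pseudogene Ube2n-ps1 inside an intron, and reads of the parent gene Ube2n could be aligned there. It held 175 IP and 73 input reads in flox and 317 and 121 in HKO, a log2 enrichment change of 0.47 (-0.02 to 0.97). The change of the stop codon peak was lower by 1.33 on the log2 scale (difference -1.33, -2.20 to -0.46). Only the stop codon peak of this pair lies on exons of Clock. Its input gave a log2 change of 0.33 (-0.30 to 0.97), so a difference in Clock abundance was not detectable at this depth.

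Summed over its peaks, the log2 enrichment change was -1.93 (-2.42 to -1.43) for the repressor gene Per2 and -0.27 (-0.51 to -0.03) for Per1, intervals that do not overlap. These sums cover unlike places, since that of Per1 includes a coding peak in exon 19 (0.33). At the stop codon peaks the intervals overlap, with -1.89 (-2.73 to -1.06) for Per2 and -0.92 (-1.33 to -0.50) for Per1. Per2 (ENSMUSG00000055866), a repressor of CLOCK and ARNTL, had both of its peaks in the last exon, and both were called in flox alone. The 3' UTR peak, on chromosome 1 from 91416530 to 91417203, held 342 IP and 69 input reads in flox and 69 and 67 in HKO. The peak near the stop codon, from 91417451 to 91417891, held 235 and 40 in flox and 37 and 30 in HKO. IP reads were far lower in HKO at each peak. Scaled to the library totals, the log2 input change was -0.34 (-0.82 to 0.14) at the first and -0.70 (-1.37 to -0.03) at the second. Enrichment went from 4.13-fold to 1.10-fold (0.79 to 1.53 by counting) at the first and from 4.85-fold to 1.31-fold (0.81 to 2.1) at the second. The HKO intervals of both include 1, which holds for 7.78% of all peaks. The log2 changes were -1.91 (-2.52 to -1.30) and -1.89 (-2.73 to -1.06). Summed over the peaks, IP was 5.23-fold higher in flox than in HKO (4.26 to 6.43) and input 1.38-fold higher (1.05 to 1.81).

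Per1 (ENSMUSG00000020893), the other repressor, is also a rapid target of glucocorticoid and cAMP signals. Its 3 peaks lie on chromosome 11. The stop codon peak (69109024 to 69109474) held 504 IP and 128 input reads in flox and 225 and 137 in HKO. Its IP was lower, with a log2 input change of -0.20 (-0.54 to 0.15). Its log2 enrichment change was -0.92 (-1.33 to -0.50), just short of 2-fold. The exon 19 peak (69106455 to 69106947) held 416 and 198 in flox and 520 and 250 in HKO, a log2 change of 0.33 (0.00 to 0.65). These peaks of the same transcript differed by 1.24 (0.72 to 1.77) on the log2 scale, more than the counting error. The third peak (69106012 to 69106231) lies in intron 18 of the principal isoform, and in the last exon of a shorter one. It held 151 and 40 in flox and 46 and 26 in HKO, a log2 change of -0.75 (-1.60 to 0.09). Its input log2 change of -0.90 was lower than that of exon 19 (0.04) by 0.94 (difference -0.94, -1.69 to -0.19), and its IP change was -1.65. Over the gene, the log2 input change was -0.12 (-0.32 to 0.08), whereas 16 of the 21 immediate-early genes had at least 2-fold higher input (13.4% of all genes).

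The nuclear receptors of the second loop followed. Rora (ENSMUSG00000032238), an activator of Arntl, had the highest flox enrichment of the 14 peaks, and was the 1 peak with IP at least 2-fold lower and an input interval above 0. Its peak, on chromosome 9 from 69378785 to 69379445 in the last exon, held 1062 IP and 122 input reads in flox and 426 and 230 in HKO. Enrichment was 7.28-fold (6.04 to 8.77) in flox and 1.97-fold (1.68 to 2.31) in HKO. IP RPM was 2.41-fold higher in flox, while input RPM was 1.53-fold higher in HKO (1.23 to 1.91).

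Nr1d2 (ENSMUSG00000021775), which encodes REV-ERB beta, had lower enrichment at both peaks on chromosome 14. The stop codon peak (18206526 to 18206870) held 633 IP and 147 input reads in flox and 116 and 91 in HKO, and enrichment was 3.61-fold and 1.36-fold. The exon 5 peak (18214857 to 18215340) held 1050 and 162 in flox and 290 and 124 in HKO, with 5.43-fold and 2.48-fold enrichment. The middle of the exon 5 peak lay at -827 nt from the stop codon, deep in the coding sequence. The log2 change of the stop codon peak was -1.41 (-1.88 to -0.94), and the 2 peaks differed by -0.28 (-0.89 to 0.33), within counting error. Input over the gene was 1.76-fold higher in flox (1.48 to 2.09) and IP 4.01-fold higher (3.60 to 4.47).

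Nr1d1 (ENSMUSG00000020889), which encodes REV-ERB alpha, had a log2 enrichment change of 0.04 (-0.23 to 0.31) over its peaks, against -1.19 (-1.48 to -0.89) for Nr1d2. Its stop codon peak (chromosome 11 from 98767935 to 98768249) held 850 IP and 374 input reads in flox and 321 and 146 in HKO. Its 5' UTR peak (98774967 to 98775176) held 309 and 133 in flox and 124 and 93 in HKO. IP and input were lower together, and at the stop codon IP exceeded input 1.91-fold in the control and 2.33-fold in HKO. The log2 changes of enrichment were 0.29 (-0.04 to 0.62) at the stop codon and -0.46 (-0.94 to 0.03) in the 5' UTR. Input over the gene was 2.60-fold higher in flox (2.23 to 3.03). The input change was larger at the stop codon (-1.65) than in the 5' UTR (-0.81, difference -0.84, -1.31 to -0.37). The stop codon peak shares 93 of its 315 nt with an exon of Thra on the other strand. From the 5' UTR peak alone the input change of Nr1d1 would not pass 2-fold. The enrichment interval of that peak (-0.94 to 0.03) overlaps the interval of Nr1d2 over its peaks (-1.48 to -0.89).

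Dbp (ENSMUSG00000059824) encodes a PAR bZIP transcription factor that carries the rhythm of the clock to liver genes. Its 5' UTR peak (chromosome 7 from 45705236 to 45705579) held 1317 IP and 324 input reads in flox and 139 and 40 in HKO. The peak at its stop codon (45709662 to 45709998) held 1246 and 635 in flox and 125 and 65 in HKO. At both peaks, IP and input were lower by about the same factor. Summed input was 11.1-fold higher in flox (9.09 to 13.6) and IP 9.38-fold higher (8.26 to 10.6). Only 0.243% of the 7821 genes had a lower input change. In the 5' UTR enrichment went from 3.41-fold to 3.64-fold (log2 change 0.09, -0.44 to 0.62), and at the stop codon from 1.65-fold to 2.03-fold (0.30, -0.15 to 0.75). Neither difference exceeded the counting error. The stop codon peak lies wholly within an exon of Sphk2 on the other strand. The 5' UTR peak, which overlaps no other gene, had a log2 input change of -3.28.

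The second comparison took the input alone, as the measure of transcript abundance under the peaks. The 5 clock genes whose transcripts are high in the day or around dusk all had less input in HKO, with log2 changes from -3.47 (Dbp) to -0.12 (Per1), and the interval lay below 0 in 4 of them, the exception being Per1. Input was lower by any amount in 36.1% of all genes, and the interval lay below 0 in 17.6%. The phase groups were chosen with earlier results of these data known, so this count is a description and not a test. The group high around dawn had 1 gene with a row, Clock. Rora (0.61, 0.30 to 0.93) was above 0. The value of Clock (0.40, 0.05 to 0.75) includes the pseudogene peak, and without it the interval includes 0 (0.33, -0.30 to 0.97). At least 2-fold lower were Dbp and Nr1d1, 2 of the 7 genes (4.46% of all), and at least 2-fold higher were 0 of 7 (13.4% of all). In order from the lowest, Dbp, Nr1d1 and Nr1d2 had intervals that do not overlap. Nr1d2 and Per2 had overlapping ones, as had Per2 and Per1, Per1 and Clock, and Clock and Rora. Without its peak that overlaps an exon of Thra, Nr1d1 had -0.81 (-1.19 to -0.43). That value is short of 2-fold, and its interval overlaps that of Nr1d2 (-0.82, -1.07 to -0.57).

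Of 11 other clock genes, 6 had a peak, and their input changes ran from -3.40 to 0.99, with 2 of the 6 at least 2-fold lower (4.46% of all genes) and 0 higher (13.4%). Input was higher by any amount in 4 of the 6, and the median was 0.47, against 0.21 over all genes. Tef had a log2 input change of -1.86 (-2.16 to -1.57), from 364 to 122 reads. Bhlhe41, a repressor of E-box genes, had -3.40 (-4.74 to -2.06) from 42 to 4 reads. Nfil3, a repressor, was higher at 0.99 (0.87 to 1.11), as were Hlf (0.68, 0.29 to 1.07) and Bhlhe40 (0.66, 0.59 to 0.74), none of these by 2-fold. Nfil3 and Bhlhe40 also respond to acute signals. Arntl2, Per3, Cry2, Ciart and Rorb had no row. Among 14 liver genes under clock control, 10 had a peak, with 1 at least 2-fold lower in input (4.46% of all genes) and 3 higher (13.4%). Usp2, which encodes a deubiquitinase, had -3.00 (-3.79 to -2.22), from 97 to 14 input reads, and was the lower gene. Wee1, a cell cycle kinase gene (2.09, 1.46 to 2.72), Cyp7a1, the rate-limiting enzyme of bile acid synthesis (1.77, 1.52 to 2.02), and Cdkn1a, a cell cycle inhibitor (1.53, 1.26 to 1.80), were the higher ones. Usp2, Wee1 and Cdkn1a were chosen from that list after their values were seen.

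**Figure D3:**
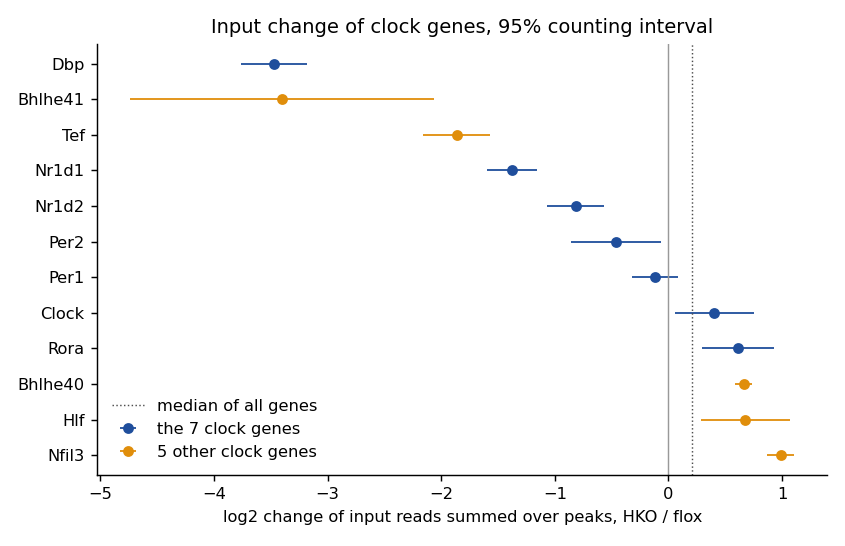
Log2 change of input reads summed over the peaks of each gene, HKO over flox, with 95% counting intervals (bars) for the 7 clock genes (blue) and 5 other clock genes (orange). The dotted line is the median of all genes (0.21), and the genes run from Dbp at -3.47 to Nfil3 at 0.99.

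The third comparison asked how the change of enrichment varied along the transcripts. Over all placed peaks the median log2 change was -0.82 within 200 nt of the stop codon and 0.39 in 5' UTRs. The clock gene peaks followed this only in part. Per1 had lower enrichment at its stop codon and not in exon 19. Of the 13 placed peaks, 6 lay below the middle 50% of all peaks at their distance from the stop codon: the peak of Rora, both of Per2, both of Nr1d2 and the 5' UTR peak of Nr1d1. Another 5 lay within it, namely those of Clock, Per1 and the Dbp 5' UTR. The other 2, the stop codon peaks of Nr1d1 and Dbp, lay above it. The counting interval lay wholly outside it at 4 of these 8 peaks, those of Rora, the Per2 3' UTR, exon 5 of Nr1d2 and the Nr1d1 stop codon. At the other 4 the point was outside by less than the counting error. Both stop codon peaks above it overlap exons of a gene on the other strand, and the sources used here do not say whether the libraries kept strand.

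**Figure D4:**
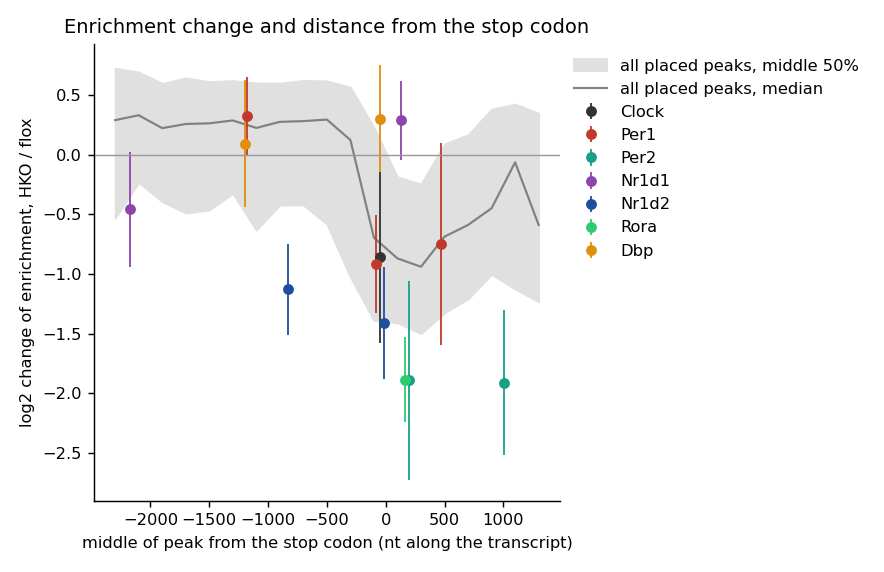
Log2 change of enrichment against the distance of the middle of each peak from the stop codon along the transcript (nt) for the 13 placed clock gene peaks, with 95% counting intervals (bars), over the median (line) and middle 50% (shading) of all placed peaks on coding transcripts in bins of 200 nt. The points of Per2, Rora and Nr1d2 lie between -1.91 and -1.13, while those of Dbp lie above 0 at both of their positions.

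The list of other clock genes was read in the same way for enrichment. Over the 9 peaks of the 6 other clock genes with a row, 4 were at least 2-fold lower and 0 higher, with a median log2 change of -0.93 (24.3% and 6.25% of all peaks passed). Among these 4, the peak of Bhlhe41 held only 7 IP and 4 input reads in HKO, and its interval includes 0 (-1.53, -3.21 to 0.15). At the strongest peak of Bhlhe40, enrichment went from 4.78-fold to 1.54-fold (-1.63, -1.73 to -1.54), with 10114 IP reads in flox, whereas its other peak had a change of 0.39 (0.14 to 0.65). Of the 3 peaks of Nfil3, the first went from 4.77-fold to 1.02-fold (-2.22, -2.43 to -2.02), another had -1.16 (-1.39 to -0.94), and the last had 0.59 (0.13 to 1.05). Over 14 peaks of 7 clock kinase and ubiquitin ligase genes, 4 were lower and 2 higher, with a median of -0.24. Csnk1d, which encodes a kinase of the PER proteins, had -1.84 (-2.15 to -1.53) at its strongest peak. Of the liver genes under clock control, 2 of 17 peaks were lower and 0 higher, with a median of 0.18.

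The genes whose 4 library values were most like those of the clock genes with the most reads were sought among 5604 genes with at least 50 reads in every library. The measure was the Euclidean distance of log2 RPM after subtracting the mean of the 4 libraries. Nearest to Nr1d2 were Tbc1d8 (distance 0.06), AC132452.1 (0.15) and Fam214a (0.15), and nearest to Per1 were Pcgf2 (0.05), Smad2 (0.06) and Wac (0.06). Dbp had no close neighbour. The nearest, AC169509.1 (0.81), Sult2a8 (0.83) and Egfr (0.90), had log2 input changes of -2.44, -3.90 and -2.46.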

How the data were processed

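Livers of flox and HKO mice gave 4 libraries, 1 per genotype and fraction. Per the study's methods, reads were mapped to GRCm38 with BWA and peaks called in each genotype against its own input with exomePeak. The caller is unsettled, since the submitters' processing notes list MACS2 2.1.0, beside BWA 0.7.12-r1039, HOMER and FastQC. The read counts deposited by the authors are whole reads per merged peak. The RPM values deposited by the authors are the count plus 1 scaled to the library total, and the deposited fold enrichment is the ratio of IP to input RPM. Peak call marks (+ or -), another deposited kind of value, were used as given. A deposited log2 change between genotypes was not used.

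The 14395 rows were reduced to 12815 distinct peaks. Reads of a gene were summed over its distinct peaks. Log2 changes are HKO over flox with 1 added to each count, intervals come from the reads of the libraries involved, and a change of at least 2-fold was called, with no test. Peaks were placed on the GENCODE M21 transcript of the overlapped gene with the best exonic overlap (a principal isoform where it reached 90% of the best). Coordinates of peaks are as deposited. Positions and motifs used the exonic part of the peak. Clock genes and lists, the phase groups among them, were chosen with earlier results of these data known. Every clock gene with a row and every peak of it was named. In the other clock lists any gene with a peak could be named, though some are not reported here, in the remaining lists up to 4 with the most reads, and 3 neighbours for each of the 3 clock genes with the most reads. Alternatives were another size of change, scaling, centring, added count, read floor, gene value and members. Software was pandas 2.3.3, numpy 2.4.6, scipy 1.17.1 and matplotlib 3.10.9 under Python 3.11.15.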

Additional observations from a re-analysis of the deposited data

How the results depend on the processing

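At 1.5-fold, 8 of the 14 clock gene peaks had lower enrichment (35.8% of all peaks), 1 of the 7 genes (Rora) had higher input (28.2% of all genes) and 3 had lower input (785 of the 7821 genes). With reads scaled to the sum over peaks, every log2 enrichment change shifts by 0.27, and 4 peaks passed 2-fold in place of 5, that of exon 5 of Nr1d2 no longer passing, with a median of -0.54. The other alternatives for this count (a floor of 10 reads, centring on all peaks, 0.5 added to each count, and leaving out the pseudogene peak) gave 5. The median over peaks ran from -0.92 to -0.54 over all alternatives. The log2 input change of Nr1d1 was -1.65 at the peak with the most input reads and -0.81 without peaks over exons of other genes, the latter short of 2-fold. Leaving out the pseudogene peak or the overlapping peaks was chosen after the data were examined. Of the 63 recomputed values of single peaks and genes, 61 stayed within their counting intervals, the exceptions being these of Nr1d1, and no change of at least 2-fold reversed its direction. No paired analysis was possible because each group has 1 library. Depth limits the peaks with the fewest reads, such as the intron peak of Per1 (26 HKO input reads).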
